A study of Mus musculus with 47 samples.

Results

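The cell cycle and DNA replication genes are 38 genes that dividing cells use to copy their DNA and to separate the copies. They were chosen by name, and every probe set annotated to them on any array of the series was taken. On the arrays, 37 of the 38 genes had 73 probe sets, and no probe set was annotated to Ccnb1. Of these genes, 29 had a probe set above a low-intensity limit on at least 2 of the 8 arrays of a set holding all 4 groups. In all, 12840 genes were tested in this way. Another 3 (Birc5, Chek1 and E2f1) could be tested on the other array version alone. The remaining 5 (Aurka, Bub1, Bub1b, Ttk and Kif20a), all kinases, checkpoint proteins or motors of mitosis, were on the arrays but not above the low-intensity limit on 2 arrays of any table.

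The RNA came from mouse lung. Sensitization took place on days 0 and 3 and intratracheal challenge on days 10 and 17, and lungs were taken 24 h or 72 h afterwards. The ragweed groups received ragweed pollen protein at both steps, with alum, an adjuvant, at sensitization, and the PBS groups received PBS at both steps. Alum is named for the ragweed mice alone, so an effect of alum and one of ragweed cannot be told apart. The labels give no strain, age or sex. Crossing the treatment with the time gives 4 groups of 2 samples each, coded 1a and 1b. Nothing says that 1a and 1b came from different mice. The p-values therefore cover only the spread between the samples at hand, and that spread may be technical.

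Expression was measured on 3 Affymetrix murine U74 arrays, A, B and C, each made in a first version and a version 2. The main comparisons used first-version A, which had all 4 groups, with version 2 B and version 2 C. Values are normalized intensities, a brightness on a linear scale with no true unit. Intensities below the 40th percentile of a table were raised to that floor, which was 292 on first-version A, 356 on version 2 B and 245 on version 2 C. Precision is limited by the small number of arrays. Markers of lung tissue were bright: the summed intensity of 3 measured alveolar type II cell genes lay between 101082 and 132830 in all 8 samples.

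Proliferation is tracked by genes that are switched on in waves. Before DNA synthesis, D-type cyclins with Cdk4 release E2F factors, which turn on the MCM helicase, the sliding clamp Pcna and the enzymes that make DNA precursors. Later, the B-type cyclins with Cdk1, the Aurora kinases, Plk1 and the spindle checkpoint drive and guard mitosis, and many of those genes carry CCAAT boxes and a CHR element in their promoters. In the lung most cells rest, and allergen challenge is known to bring in or expand lymphocytes and to stimulate airway epithelium.

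The promoters of the genes were read first, since shared elements are what the genes have in common beyond their choice by name. RefSeq windows on build GRCm38.p6, 300 bases long with 250 before and 50 after the start, were found for 31 of the 38 genes, 32 windows in all. On both strands, 5 of the 32 windows (15.6%) held one of the E2F motifs TTTCCCGC or TTTGGCGC, against 1.56% of all 32851 windows. The CHR element TTTGAA was in 13 windows (40.6%), against 17.9% of all. The CCAAT box was in 24 windows (75%), against 37.4% of all. These matches are letters in a window and are no evidence of binding. The 250 bases before the start are shown for 4 genes, with the motifs in capitals (ATTGG is CCAAT on the other strand). Mki67 and Cdk1 are mitotic genes with 2 CHR elements each, Mcm2 is a helicase gene with 1 CHR element and 1 CCAAT box, and Mcm6 has 2 copies of an E2F motif.
Mki67 (chr7:135716380-135716629, minus strand): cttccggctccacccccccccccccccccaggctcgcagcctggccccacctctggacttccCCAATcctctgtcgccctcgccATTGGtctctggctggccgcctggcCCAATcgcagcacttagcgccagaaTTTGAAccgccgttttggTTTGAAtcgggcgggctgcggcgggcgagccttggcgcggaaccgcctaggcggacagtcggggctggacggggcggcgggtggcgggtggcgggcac
Cdk1 (chr10:69352913-69353162, minus strand): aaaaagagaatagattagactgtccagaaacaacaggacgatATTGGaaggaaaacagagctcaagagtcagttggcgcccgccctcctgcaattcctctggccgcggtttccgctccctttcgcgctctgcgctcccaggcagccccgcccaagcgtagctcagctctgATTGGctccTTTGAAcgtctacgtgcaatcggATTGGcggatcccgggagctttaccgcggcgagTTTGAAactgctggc
Mcm2 (chr6:88898781-88899030, minus strand): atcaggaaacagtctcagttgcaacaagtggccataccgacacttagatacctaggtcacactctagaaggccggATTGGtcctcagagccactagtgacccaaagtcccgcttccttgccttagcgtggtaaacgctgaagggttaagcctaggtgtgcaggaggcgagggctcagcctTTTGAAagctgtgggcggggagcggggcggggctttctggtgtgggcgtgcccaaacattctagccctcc
Mcm6 (chr1:128359706-128359955, minus strand): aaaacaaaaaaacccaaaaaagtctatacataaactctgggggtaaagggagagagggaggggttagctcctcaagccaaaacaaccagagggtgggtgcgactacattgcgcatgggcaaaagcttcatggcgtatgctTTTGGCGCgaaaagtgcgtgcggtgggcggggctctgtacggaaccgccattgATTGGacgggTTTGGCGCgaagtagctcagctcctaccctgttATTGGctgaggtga

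At 24 h none of the 29 tested genes was called, that is, none had an adjusted p under 0.05 (limma, Benjamini-Hochberg over all 25250 probe sets of the 3 tables). Over all genes 0.366% were called in this comparison. At an unadjusted p under 0.05 there were 2 of 29 (6.9%), against 9.06% of all genes. At 72 h, 1 of 29 was called: Aurkb, an Aurora kinase of chromosome segregation and cytokinesis, was higher in ragweed lungs, where 0.646% of all genes were called and 0.374% were called higher. At an unadjusted p under 0.05 there were 4 at 72 h (13.8%), against 10.6% of all genes. The median log2 difference of the 29 genes was 0 at 24 h and 0.05 at 72 h, and the median of all genes was 0 at 72 h. Aurkb, Mki67, Cdk1, Top2a and Tyms passed the filter on low values only through their ragweed samples. Mad2l1 and Kif11 passed only through their PBS samples. For these 7 the filter itself favoured a difference in that direction. It did not force one at each time: Mki67 and Cdk1 differed by 0 at 24 h. Among the other 22 members none was called at either time (limma), and 1 at 24 h and 2 at 72 h had an unadjusted p under 0.05. In whole lung, fewer cells of a type and less RNA per cell cannot be told apart.

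The samples of the groups did not overlap for 5 genes with ragweed above and 3 with ragweed below at 24 h (17.2% and 10.3% of 29), against 17.2% and 18.9% of all genes. At 72 h it was 8 above and 4 below (27.6% and 13.8%), against 18.1% and 18.6%. Among the 22 members that each treatment's samples would pass alone, it was 3 and 3 at 24 h and 5 and 2 at 72 h. The 95% interval of the log2 difference lay within 1 either way, a 2-fold change, for 20 of the 29 genes at 24 h and for 19 at 72 h. The other intervals reached beyond a 2-fold change. No member was called in the mean of both times, the difference between the times, PBS at 72 h against PBS at 24 h or ragweed at 72 h against ragweed at 24 h. In those 4 comparisons 0.919%, 0.0312%, 0.405% and 0.296% of all genes were called, and 5, 4, 4 and 4 members had an unadjusted p under 0.05. Of all genes, 11.9%, 7.87%, 9.54% and 10.7% did.

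**Figure D1:**
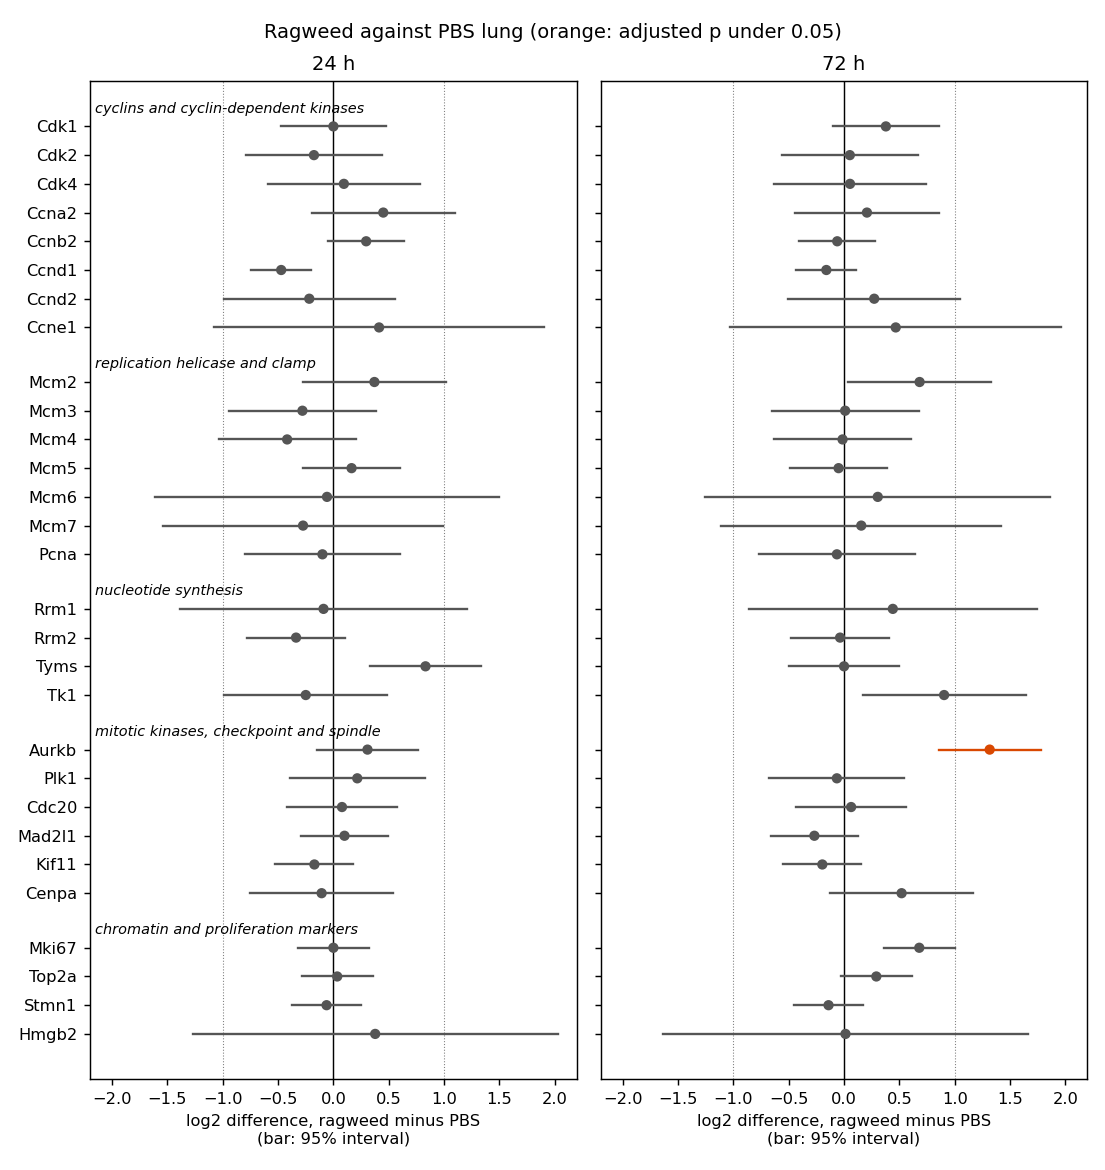
Log2 difference between ragweed and PBS lung (x axis) for the 29 tested genes at 24 h and 72 h, with 95% intervals; n = 2 samples per group. Aurkb at 72 h (1.32, orange) has an adjusted p under 0.05 and most other intervals cross 0.

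Among the mitotic kinases, checkpoint and spindle genes, 6 of 12 were tested. On probe set 98469_at, Aurkb read 292 and 292 in PBS and 379 and 344 in ragweed at 24 h. At 72 h the same probe set read 365 and 292 in PBS and 814 and 811 in ragweed. Both ragweed samples of 72 h stood above every other sample, and 3 of the 4 PBS samples were at the floor. The difference was 1.32 ± 0.20 (SE) on the log2 scale at 72 h (adjusted p = 0.036, limma). Its size and its call depended on the floor: with the floor at the 20th percentile it was 1.79 (adjusted p = 0.282), and at the 60th it was 0.42 (adjusted p = 0.066). At 24 h it was at least 0.31, since both PBS samples were at the floor. As fitted, the difference between the times was 1.01 ± 0.28 (adjusted p = 0.513, limma), so the 2 times were not shown to differ.

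The call did not hold on other measurements of Aurkb. On version 2 A the same probe set read 331 and 251 in the PBS samples of 24 h. At 72 h it read 238 and 407 in PBS and 238 and 309 in ragweed. The groups overlapped, and the difference at 72 h was -0.20 ± 0.30 (adjusted p = 0.768, limma on that table). The other tested Aurkb probe set, 168330_f_at on version 2 C, read 642 and 477 in PBS and 569 and 507 in ragweed at 72 h, a difference of -0.04 ± 0.42. At 24 h it read 930 and 860 in PBS and 1258 and 1437 in ragweed, a difference of 0.59 ± 0.42 (adjusted p = 0.765, limma). The call on first-version A was lost without any 1 of the 8 samples, where the difference ran from 1.16 to 1.48 and the adjusted p from 0.09 to 0.218.

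Several markers of antibody-producing cells were higher in the same samples. The summed intensity of 7 measured B and plasma cell genes was 44269 to 51914 in ragweed and 17455 to 17714 in PBS at 72 h. At 24 h it was 20750 to 21000 in ragweed and 9738 to 10030 in PBS. Most of that sum was Ighm, the IgM heavy chain, at 37862 and 29833 in ragweed and 9835 and 10114 in PBS at 72 h. At 72 h, 4 of the 7 genes were called higher, and Cd79a, a B cell receptor component, was lower without passing (-0.56 ± 0.19, adjusted p = 0.368, limma). The summed intensity of 3 measured germinal centre B cell genes was 1211 to 1237 in ragweed and 1042 to 1138 in PBS at 72 h. Of these, Mybl1 differed by at least 0.64 ± 0.19, Bcl6 by 0.16 ± 0.26 and Gcsam by -0.31 ± 0.25, with none called. The summed intensity of 4 of 8 T cell genes was lower in ragweed, also with none called. It was 1872 to 1971 in ragweed and 3370 to 3422 in PBS at 24 h, then 2300 to 2354 and 2579 to 2735 at 72 h. Most of the 24 h gap was Cd3d (315 and 713 in ragweed, 1830 and 1816 in PBS). Cd4, Cd3e and Cd5 differed by -0.32, -0.03 and 0 at 24 h, and Cd5 went the other way at 72 h (0.16 ± 0.25). The summed intensity of 5 of 7 macrophage genes was 56516 to 57927 in ragweed and 6435 to 6880 in PBS, also at 72 h. Nearly all of that gap was Chil3, a chitinase-like protein (52066 and 50946 in ragweed, 3042 and 2710 in PBS), and the other 4 genes differed by 0.27 to 0.83 with none called. The part of these cells in the Aurkb and Mki67 values was not tested.

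For the other tested mitotic genes neither time passed the test. Mad2l1, a spindle checkpoint protein, read 304 and 406 in PBS at 72 h, and both ragweed samples of 72 h were at the floor, so the fitted difference of -0.27 ± 0.17 is a bound and the gap is at least that wide. The 24 h samples overlapped, with 305 and 292 in PBS and 351 and 292 in ragweed. Kif11, the motor that pushes spindle poles apart, read 370 and 292 in PBS and 292 and 292 in ragweed at 24 h. At 72 h Kif11 read 328 and 365 in PBS and 292 and 312 in ragweed, a difference of -0.20 ± 0.15. Plk1, Cdc20 and Cenpa, a mitotic kinase, an activator of the ubiquitin ligase that ends mitosis and the centromeric histone, had differences between -0.11 and 0.22 at 24 h and between -0.07 and 0.52 at 72 h. The highest of these was Cenpa at 72 h (0.52 ± 0.28, adjusted p = 0.637, limma), with no overlap. On version 2 A Cenpa differed by -0.14 ± 0.27 at 72 h. These values are from 1 probe set per gene. A second Kif11 probe set, 170746_f_at, was also tested, and its values are not given here. A second tested Plk1 probe set, 93099_f_at, had the opposite sign to the first at both times, with -0.19 at 24 h and 0.18 ± 0.17 at 72 h.

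**Figure D2:**
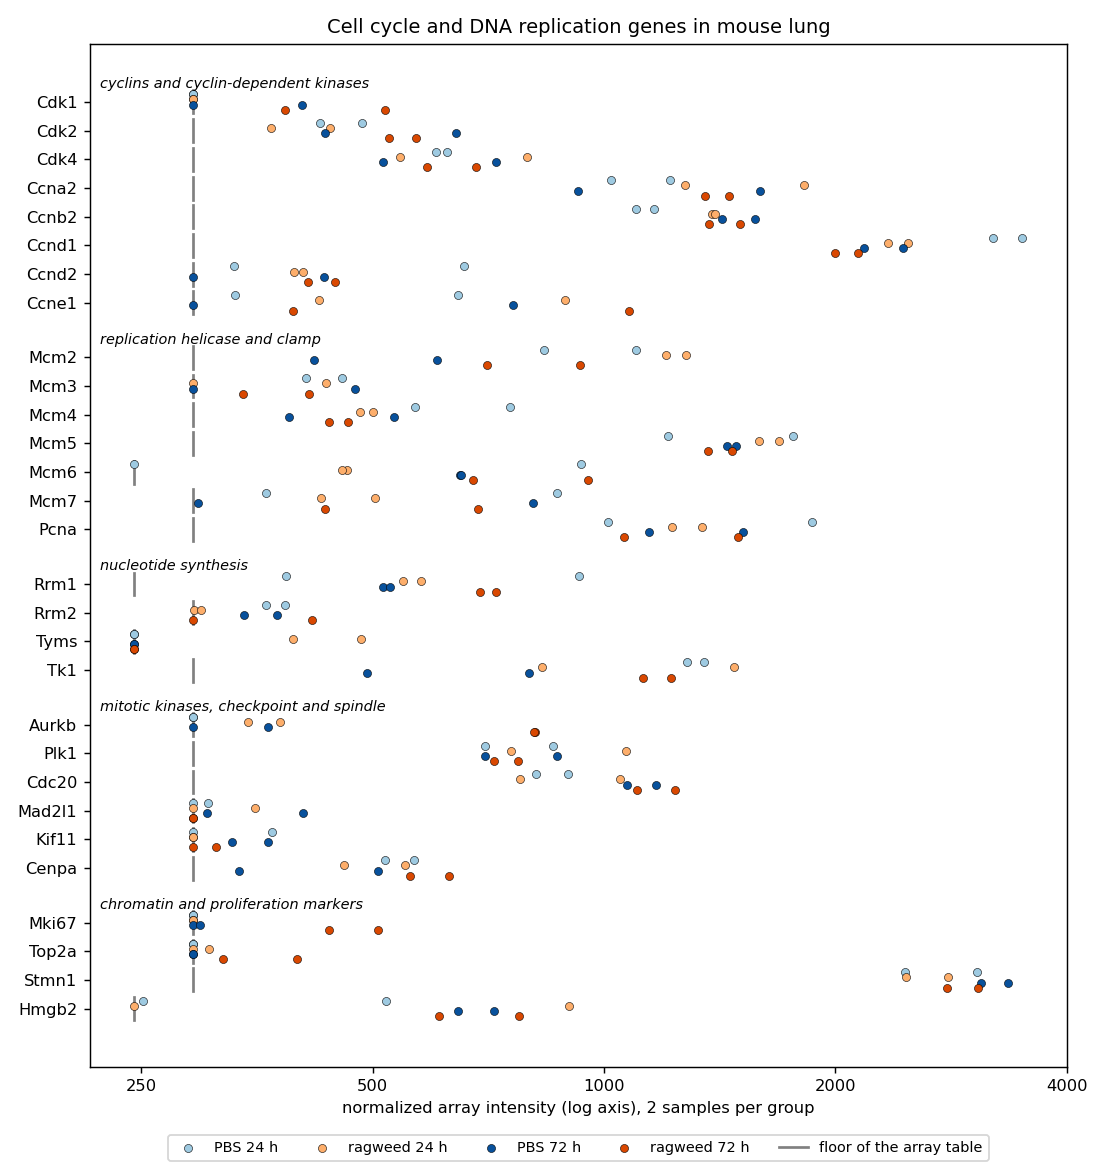
Normalized intensity (log x axis) of the 29 tested genes in each of the 8 samples, 2 per group, on 1 probe set per gene; grey ticks mark the floor of the array table. Mki67, Top2a and Tyms lie at the floor in most samples, and Ccnd1 is at 1998 or above in all 8.

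Of the chromatin and proliferation markers, all 4 were tested and none was called. Mki67, a nuclear protein present in dividing cells, was at the floor of 292 in both PBS and both ragweed samples of 24 h. At 72 h Mki67 read 292 and 298 in PBS and 439 and 508 in ragweed, a difference of 0.68 ± 0.14 (adjusted p = 0.115, limma). The SE depended on the floor: with the floor at the 20th percentile the difference was 0.79 ± 0.51 (adjusted p = 0.723, limma). With no floor and an offset of 50 it was 0.69 ± 0.48 (adjusted p = 0.706, limma). Both ragweed samples of 72 h were above the other 6 samples. Top2a, the topoisomerase that untangles replicated DNA, was at the floor in all 4 PBS samples. In ragweed Top2a read 292 and 306 at 24 h and 399 and 320 at 72 h, a difference of at least 0.29 ± 0.14 at 72 h (adjusted p = 0.577, limma), with no PBS sample above the floor at either time.

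Stmn1, a microtubule regulator, read 2467 and 3055 in PBS and 2469 and 2803 in ragweed at 24 h. At 72 h Stmn1 read 3358 and 3096 in PBS and 3063 and 2794 in ragweed, and the ragweed samples lay just below (-0.14 ± 0.14). Hmgb2, a chromatin protein, read 251 and 520 in PBS and 901 and 245 in ragweed at 24 h, and 719 and 645 in PBS and 774 and 610 in ragweed at 72 h. The Hmgb2 samples overlapped at both times, and its differences, 0.38 and 0.01, had an SE of 0.72, the widest of the 29 genes.

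Of the cyclins and cyclin-dependent kinases, 8 of 11 were tested and none was called at either time. Cdk1, the kinase of mitotic entry, was at the floor in all 4 samples of 24 h. At 72 h Cdk1 read 405 and 292 in PBS and 519 and 384 in ragweed, which overlapped (0.38 ± 0.21, adjusted p = 0.643, limma). Ccnd1, a D-type cyclin, read 3495 and 3204 in PBS and 2488 and 2340 in ragweed at 24 h on probe set 94232_at. Both ragweed samples were lower, with a difference of -0.47 ± 0.12 (adjusted p = 0.261, limma). At 72 h Ccnd1 read 2450 and 2180 in PBS and 2141 and 1998 in ragweed, again without overlap (-0.16 ± 0.12). The PBS samples of 72 h were themselves lower than those of 24 h (-0.53 ± 0.12, adjusted p = 0.207, limma). Against the PBS samples of 24 h, ragweed at 72 h had a difference of -0.69 ± 0.12, which passed (adjusted p = 0.0417, limma), where 0.452% of all genes were called lower.

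The other Ccnd1 probe sets did not show it as clearly. On 94231_at the differences were -0.07 ± 0.31 and 0.01 ± 0.31, and on 167827_at they were 0.00 ± 0.55 and -0.52 ± 0.55, at 24 h and 72 h. Ccnd2, another D-type cyclin, read 330 and 657 in PBS and 395 and 405 in ragweed at 24 h, then 292 and 432 in PBS and 446 and 412 in ragweed at 72 h. Cdk4, the kinase partner of the D-type cyclins, read 625 and 605 in PBS and 793 and 543 in ragweed at 24 h, then 516 and 723 in PBS and 589 and 682 in ragweed at 72 h. The samples of both genes overlapped at both times.

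Ccna2, the cyclin of DNA synthesis and early mitosis, read 1218 and 1020 in PBS and 1822 and 1274 in ragweed at 24 h (0.45 ± 0.28). At 72 h Ccna2 read 924 and 1596 in PBS and 1452 and 1352 in ragweed, which overlapped. Ccnb2, a mitotic cyclin, had ragweed above PBS at 24 h without overlap (0.30 ± 0.15) but not at 72 h (-0.06 ± 0.15). Ccne1, the cyclin of entry into DNA synthesis, read 331 and 645 in PBS and 425 and 890 in ragweed at 24 h, then 292 and 761 in PBS and 1077 and 394 in ragweed at 72 h. Samples of 1 group differed as much as the groups, and the SE of its differences was 0.65. Cdk2, its kinase partner, had differences of -0.18 and 0.05.

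All 7 genes of the replication helicase and clamp were tested, and none was called. Mcm2, a subunit of the helicase, read 835 and 1102 in PBS and 1205 and 1278 in ragweed at 24 h, then 419 and 606 in PBS and 931 and 703 in ragweed at 72 h. Ragweed lay above PBS at both times without overlap, by 0.37 ± 0.28 and 0.68 ± 0.28 (adjusted p = 0.777 and 0.493, limma). The PBS samples of 72 h were the lowest of the 8: PBS at 72 h differed from PBS at 24 h by -0.93 ± 0.28 (adjusted p = 0.383, limma). Against PBS at 24 h, ragweed at 72 h differed by -0.25 ± 0.28, so the direction at 72 h depended on which PBS samples were the reference. The PBS samples of 72 h also stood apart in other tissue markers: the summed intensity of 6 squamous and basal epithelial genes was 32471 to 34353 there and 10808 to 14649 in the other 3 groups. That of 5 muscle genes was 19428 to 21389 there and 7003 to 12201 elsewhere. Most of the epithelial sum was Krt4, at 24103 and 25342 in PBS at 72 h. From PBS at 24 h to PBS at 72 h, 4 of the 6 epithelial genes rose. Krt14 and Trp63 went the other way (-0.17 ± 0.47 and -0.32 ± 0.30). The part of these tissues in the Mcm2 and Tk1 values was not tested.

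The other helicase subunits showed no common direction. Mcm3 read 409 and 457 in PBS and 292 and 434 in ragweed at 24 h, then 474 and 292 in PBS and 338 and 414 in ragweed at 72 h. Mcm4 read 568 and 755 in PBS and 481 and 500 in ragweed at 24 h (-0.42 ± 0.27), then 532 and 389 in PBS and 464 and 438 in ragweed at 72 h. Only the 24 h samples of Mcm4 were free of overlap. Mcm5 read 1763 and 1213 in PBS and 1687 and 1592 in ragweed at 24 h, then 1485 and 1446 in PBS and 1365 and 1469 in ragweed at 72 h. A second Mcm5 probe set, 167677_r_at on version 2 C, read 9043 and 9098 in PBS and 11804 and 12992 in ragweed at 72 h, without overlap (0.45 ± 0.16, adjusted p = 0.404, limma). That probe set did not differ by as much at 24 h (-0.03 ± 0.16), and the first one read -0.05 ± 0.19 at 72 h.

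Mcm6 read 932 and 245 in PBS and 462 and 456 in ragweed at 24 h, then 649 and 651 in PBS and 675 and 954 in ragweed at 72 h. Mcm7 read 363 and 867 in PBS and 428 and 503 in ragweed at 24 h, then 808 and 296 in PBS and 433 and 686 in ragweed at 72 h. Single samples of both genes differed by more than 2-fold within a group, and their SEs were 0.68 and 0.55. Pcna, the sliding clamp, read 1013 and 1865 in PBS and 1227 and 1342 in ragweed at 24 h, then 1515 and 1144 in PBS and 1061 and 1493 in ragweed at 72 h. The Pcna groups overlapped at both times, with differences of -0.10 and -0.06 and 95% intervals that lay within 1 either way.

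The 4 nucleotide synthesis genes make the precursors of DNA, and none was called. Tk1, which salvages thymidine, read 1348 and 1284 in PBS and 830 and 1475 in ragweed at 24 h, then 798 and 492 in PBS and 1124 and 1223 in ragweed at 72 h. At 72 h ragweed was above PBS without overlap (0.90 ± 0.32, adjusted p = 0.398, limma). As for Mcm2, the PBS samples of 72 h were the lowest of the 8 (-1.07 ± 0.32 against PBS at 24 h), and ragweed at 72 h differed from PBS at 24 h by -0.17 ± 0.32. Tk1 had 3 more tested probe sets, with 72 h differences of 0.29 ± 0.38, -0.09 ± 0.35 and -0.11 ± 0.19.

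Tyms, which makes thymidylate, was measured alone by 168092_r_at on version 2 C. It was at the floor of 245 in all 4 PBS samples and both ragweed samples of 72 h, and read 394 and 482 in ragweed at 24 h. Its 24 h difference was at least 0.83 ± 0.22 (adjusted p = 0.277, limma), in a probe set above the floor in no other group. The first-version A probe set 93236_s_at, shared with the copy Tyms-ps and so uncertain, pointed the other way at 24 h, with 376 and 343 in PBS and both ragweed samples at the floor. Rrm1 and Rrm2 are the large and small subunits of ribonucleotide reductase. Rrm1 read 929 and 386 in PBS and 548 and 578 in ragweed at 24 h, then 515 and 526 in PBS and 724 and 689 in ragweed at 72 h (0.44 ± 0.57). Rrm2 read 363 and 384 in PBS and 293 and 299 in ragweed at 24 h (-0.34 ± 0.19), then 375 and 340 in PBS and 417 and 292 in ragweed at 72 h. Neither subunit kept its 2 groups apart at both times.

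The A array was run in both versions, on the same samples, so the versions are repeat measurements and not further replicates. Of the 38 genes, 36 had probe sets on both versions of an array. On A, 39 probe sets naming a single member were shared. Of these, 24 were tested on both versions, 3 on the first alone, 4 on version 2 alone and 8 on neither. Version 2 A has no ragweed array of 24 h among those analysed here, so the versions were compared at 72 h.

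Of the 24 probe sets, 12 had the same sign on both versions and 12 the opposite sign, where 56.1% of all 6283 shared probe sets had the same sign. The correlation of the differences across the 24 was 0.04, and across all 6283 it was 0.39. These points share their samples and arrays, and the correlations are a description. The median gap between the versions was 0.20 for the members and 0.29 for all. On version 2 A none of the 34 tested member probe sets was called at 72 h (limma), where 2.09% of its 8044 tested probe sets were. At an unadjusted p under 0.05 there were 5 (of Ccne1, Plk1, Mki67, Ccnd1 and Stmn1), against 18.5% of all.

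**Figure D3:**
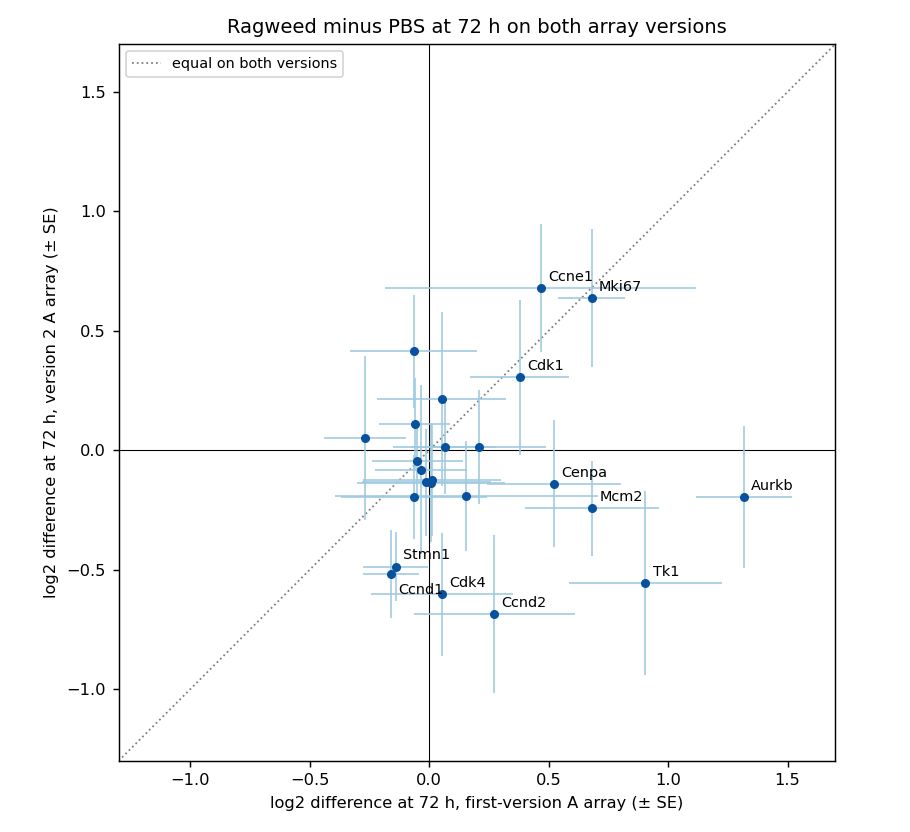
Log2 difference between ragweed and PBS at 72 h on first-version A (x axis) and version 2 A (y axis) for the 24 member probe sets tested on both, with SE bars; the dotted line marks equal values. Mki67 and Cdk1 lie near the line, and Aurkb, Tk1, Mcm2 and Ccnd2 lie below it with opposite signs.

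Mki67 had nearly the same difference on both versions, 0.68 ± 0.14 and 0.64 ± 0.29 (adjusted p = 0.115 and 0.299, limma). The smaller SE on the first version came with most samples at the floor. On version 2 A, probe set 99457_at read 246 and 427 in PBS and 451 and 564 in ragweed at 72 h, again without overlap. A further Mki67 probe set, 161931_r_at, is on version 2 A alone and read 284 and 241 in PBS and 358 and 380 in ragweed at 72 h. Its PBS samples of 24 h read 340 and 261, below both ragweed samples as well. Cdk1 differed by 0.38 and 0.30, and Mcm5 by -0.05 and -0.04. Ccne1 was positive on both, at 0.47 ± 0.65 and 0.68 ± 0.27. Ccnd1 was negative on both, at -0.16 ± 0.12 and -0.52 ± 0.19, and so was Stmn1, at -0.14 ± 0.14 and -0.49 ± 0.14.

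Gaps of more than 0.9 between the versions were seen for Aurkb (1.51), Tk1 (1.46), Ccnd2 (0.96) and Mcm2 (0.93). Tk1 differed by 0.90 ± 0.32 on the first version and by -0.56 ± 0.39 on version 2, where PBS at 72 h read 401 and 756 and ragweed 490 and 286. Mcm2 differed by 0.68 ± 0.28 and by -0.24 ± 0.20, with 809 and 743 in PBS and 602 and 712 in ragweed on version 2. The PBS samples of 72 h, which were the lowest for Mcm2 on the first version, were not low on version 2. Ccnd2 differed by 0.27 ± 0.34 and by -0.69 ± 0.33. The 3 genes positive on the first version with an unadjusted p under 0.05 other than Mki67 (Aurkb, Tk1 and Mcm2) were thus all negative on version 2.

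The actin control and the scaling differed between the versions. On version 2 A the ratio of the 3' to the 5' actin control was 0.189 to 0.198 in PBS at 72 h, 0.437 to 0.535 in that of 24 h and 0.578 to 0.801 in the ragweed samples. On first-version A it was 0.798 to 0.968 in all 8 samples. The Gapdh ratio differed less between the groups of version 2 A, at 0.751 to 0.824 in PBS at 72 h. It was 0.857 to 0.988 in PBS at 24 h and 0.851 to 0.869 in ragweed. Version 2 C carries the Tyms, Mcm6, Rrm1 and Hmgb2 values. Its actin ratio at 24 h was 0.993 to 1.076 in PBS and 1.431 to 1.603 in ragweed. Its Gapdh ratio at 24 h overlapped, at 1.022 to 1.173 in PBS and 1.032 to 1.253 in ragweed. The first-version A PBS arrays were deposited at trimmed means of 224.7 to 376.5 and the ragweed arrays at about 800, before the scaling used here. The part of these in the gaps and in the 24 h values was not tested. With PBS of 24 h as the reference on version 2 A, a choice made after seeing the data, Aurkb differed by -0.09 ± 0.30 and Mki67 by 1.03 ± 0.29 (adjusted p = 0.066, limma). In that comparison 3 member probe sets were lower and passed: Ccnd1 94232_at (-1.05 ± 0.19), Pcna 101065_at (-0.71 ± 0.17) and Cdk4 160538_at (-0.63 ± 0.12). Their adjusted p-values were 0.0176, 0.0465 and 0.0233 (limma), where 4.85% of the probe sets were called lower. On the first version the same comparison gave -0.13 ± 0.31 for Pcna (adjusted p = 0.942, limma). That comparison mixes treatment with time. On version 2 A, PBS at 72 h was itself lower than PBS at 24 h for Ccnd1 94232_at (-0.54 ± 0.19) and Pcna (-0.52 ± 0.17). Against PBS of 72 h they differed by -0.52 ± 0.19 and -0.20 ± 0.17 (adjusted p = 0.211 and 0.589, limma).

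**Figure D4:**
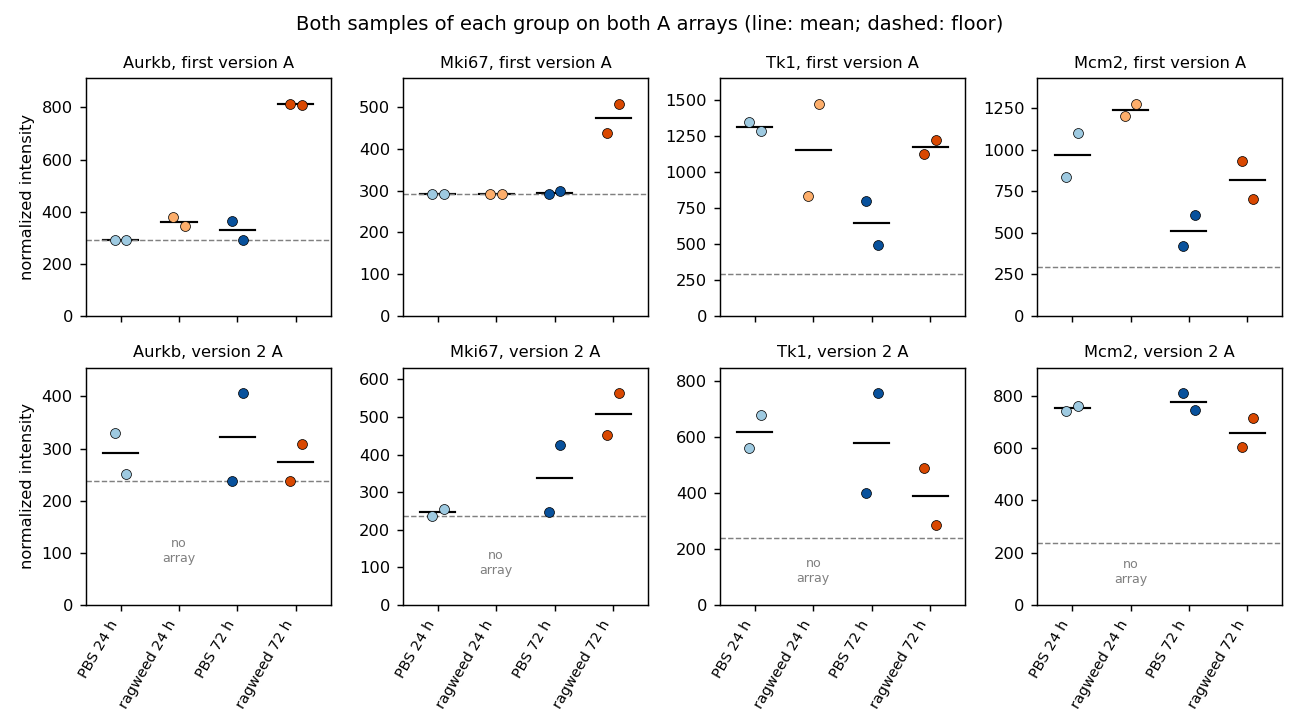
Normalized intensity of Aurkb, Mki67, Tk1 and Mcm2 in both samples of each group, on first-version A (top) and version 2 A (bottom); lines are group means and the dashed line is the floor. Ragweed at 72 h stands above PBS at 72 h on both versions for Mki67 alone.

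The 3 members tested on the other version alone had no call there. Birc5 (survivin), the partner of Aurkb in the chromosomal passenger complex, read 238 and 310 in PBS and 248 and 280 in ragweed at 72 h on version 2 A (-0.04 ± 0.18). Chek1, the replication checkpoint kinase, was above the floor in 1 sample of each of PBS at 24 h and ragweed at 72 h, at 271 and 380. E2f1 read 356 and 279 in PBS at 24 h, was at the floor in PBS at 72 h, and read 238 and 460 in ragweed at 72 h. With floored samples in both groups, no difference is given for these. Most of the readings given were near the floor of 238, and the highest were 460 for E2f1 and 380 for Chek1, each in 1 sample.

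Other genes of the same processes, in 4 lists, were read beside the members. Among 31 tested of 50 other replication genes none was called at 24 h or 72 h, with medians of -0.07 and 0 and with 15 positive and 15 negative at 72 h. The differences furthest from 0 were Orc4, of the origin recognition complex, at 24 h (-0.79 ± 0.37) and Rpa2, of the single-strand binding complex, at 72 h (-0.90 ± 0.45). Among 33 tested of 45 other mitosis genes none was called, with medians of 0 and 0.08. Kif22, a chromosome motor, was furthest from 0 at 24 h (0.87 ± 0.31) and Cenph, of the kinetochore, at 72 h (1.0 ± 0.76). At an unadjusted p under 0.05 these lists held 2 and 1 genes at 24 h and 0 and 2 at 72 h. Of all genes, 9.06% did at 24 h and 10.6% at 72 h.

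Among 20 tested of 23 G1 to S regulators none was called at either time, with medians of 0.00 and 0.02. Skp2, which marks cell cycle inhibitors for destruction, differed by 1.40 ± 0.45 and E2f6, a repressor, by -1.21 ± 0.39 at 24 h (adjusted p = 0.388 and 0.354, limma). At an unadjusted p under 0.05 there were 3 of 20 at 24 h and 0 at 72 h, against 9.06% and 10.6% of all genes. Among 13 tested of 20 cell cycle inhibitors none was called at either single time, with medians of -0.15 and -0.13. Of these 13, 4 and 2 had an unadjusted p under 0.05, against the same 9.06% and 10.6% of all genes. Gadd45g, a stress-induced gene that restrains division, read 401 and 360 in PBS and 1088 and 947 in ragweed at 24 h, then 674 and 586 in PBS and 982 and 951 in ragweed at 72 h. Ragweed was above PBS at both times without overlap, and the mean of both times, 1.02, was called (adjusted p = 0.0464, limma). In that comparison 0.919% of all genes were called. Cdkn2b, which inhibits Cdk4 and Cdk6, read 510 and 637 in PBS at 24 h with both ragweed samples at the floor, then 558 and 630 in PBS and 389 and 310 in ragweed at 72 h. Ragweed was below PBS at both times (-0.97 ± 0.23, a bound as ragweed was at the floor, and -0.77 ± 0.23; adjusted p = 0.234 and 0.294, limma).

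**Figure D5:**
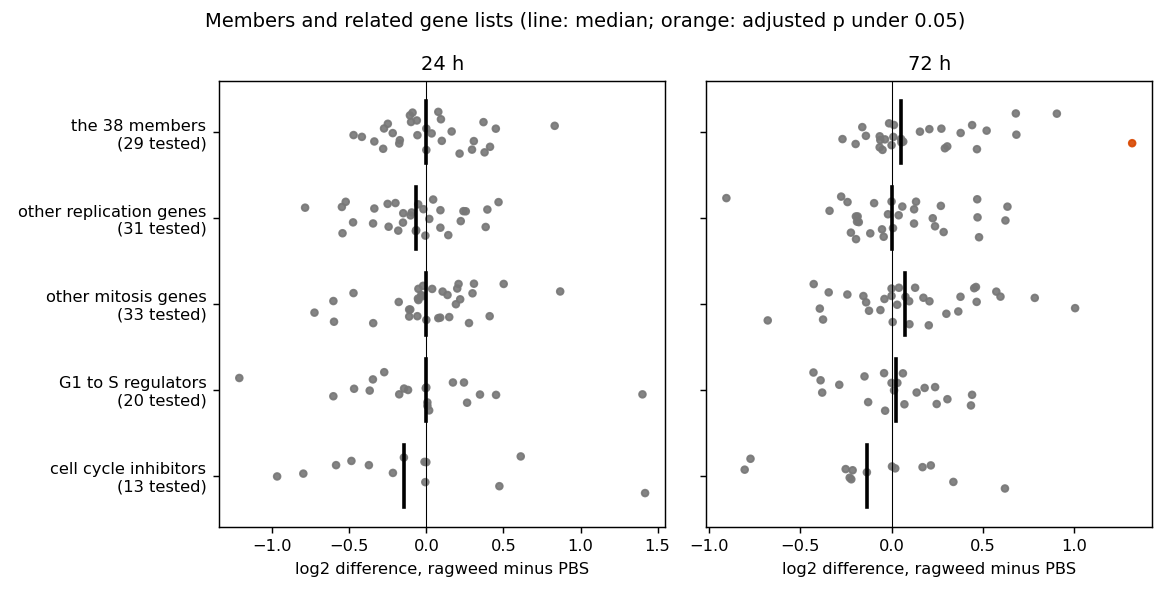
Log2 difference between ragweed and PBS (x axis) at 24 h and 72 h for the 29 tested members and the tested genes of 4 related lists, 1 point per gene, with vertical lines at the medians. The medians lie between -0.15 and 0.08, and Aurkb at 72 h (orange) is the 1 gene of these lists called at a single time.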

How the data were processed

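The deposited values are linear intensity, 1 per probe set and array (software: not given in the sources used here). First-version A was restricted to 9977 probe sets shared with version 2, rescaled so that its 2% trimmed mean was 800, then quantile normalized. Version 2 B and C were used as deposited. An array equal to ragweed 24 h 1a divided by 2.63 was counted once. Values were floored at the 40th percentile, and probe sets above it on at least 2 arrays were tested.

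The test was limma 3.58.1 in R 4.3.3 (eBayes with trend, 1 mean per group), with p-values of the 3 main tables pooled (Benjamini-Hochberg, 0.05) and version 2 A adjusted alone. The procedure was tested on simulated data. A difference is a bound ("at least") where the lower group lies wholly at the floor and the higher one wholly above. Floored values add no spread, so such SEs and p-values may be too small. A gene is represented by 1 single-gene probe set, A before B before C, then the brightest, with symbols from GEO's platform annotation.

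Values per sample are given for called members, the 4 largest differences each way at each time and a fixed set; related lists give called genes or those furthest from 0. The members and lists were chosen with earlier results of these data known. Numbers 1a and 1b did not pair samples (deviation correlations -0.08 to 0.04). Alternatives covered normalization, floor, filter, trend, array version, adjustment, replicate block, each sample left out and the PBS reference.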

Additional observations from a re-analysis of the deposited data

Results flagged for a closer look

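For 2 member probe sets, both on version 2 C and neither standing for its gene above, the samples of ragweed lay above those of PBS at 24 h and below them at 72 h. Ccne1 171290_r_at read 658 and 477 in PBS and 906 and 1032 in ragweed at 24 h, then 903 and 881 in PBS and 550 and 313 in ragweed at 72 h. Its difference changed by -1.89 on the log2 scale from 24 h to 72 h (adjusted p = 0.626, limma). Mcm6 169271_r_at was at the floor in PBS at 24 h and in ragweed at 72 h, and read 257 and 1261 in ragweed at 24 h and 426 and 589 in PBS at 72 h. As fitted, its difference changed by -2.25, a bound since the lower group was at the floor at both times (adjusted p = 0.675, limma). The other tested probe sets of both genes had overlapping samples at 24 h and showed no such crossing.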

How the results depend on the processing

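The count of 0 members called at 24 h was the same under all 22 alternatives. On the other array version all 34 tested member probe sets were on version 2 A. That alternative thus tested no member at 24 h and could give only 0. At 72 h the count of 1 became 0 with the floor at the 20th or the 60th percentile, with no floor and an offset of 50, on the other array version, with all probe sets of first-version A, with the replicate block, and without each of the 8 samples in turn (range 0 to 0). It became 2 with p-values adjusted within each table (Mki67, adjusted p = 0.0454, limma), with PBS of the other time as the reference (Ccnd1, lower) and with PBS of both times (Mki67, adjusted p = 0.0475). For Aurkb itself these settings gave 1.79, 0.42, 1.58, -0.197 (reversed), 1.5 and, with the replicate block, 1.32 (adjusted p = 0.0699, limma). The block changed no other call of a member. For Mki67 at 72 h the floor at the 20th percentile gave an adjusted p of 0.723, and no floor gave 0.706 (limma). On version 2 A with PBS of 24 h as the reference, added after seeing the data, Aurkb was again reversed (-0.0869). Among the 22 members that pass the filter in each treatment alone, also added later, the count was 0 at both times. This was fixed in advance, since Aurkb, the only member called at either time, is not among them. In the mean of both times the count of 0 became 1 with no mean-variance trend and within each table. For ragweed at 72 h against 24 h it became 1 with no filter on dim probe sets and within each table. Over 1180 comparisons (58 member differences, each under its alternatives), 1160 stayed on their side of the threshold, 13 lost and 5 gained a call and 2 reversed. A change of sign without a call was not counted as reversed. Such changes were seen under up to 7 alternatives of a difference (Mcm3 at 72 h, 7 of 21). For Ccnb2 at 72 h it was 6 of 22. With 2 samples per group and many members near the floor, differences under about 2-fold were often within the error.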
